A study of Zea mays with 13 samples.

Results

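Of 39424 maize genes with enough background reads to be measured, 12735 (32.3%) carried both of the histone marks found at active promoters, H3K4me3 and H3K9ac, and were not marked by the Polycomb mark H3K27me3. They were chosen from the read counts themselves, so their levels of the 3 marks are a description and were not tested. Enrichment of a gene was the log2 ratio of its share of a library's counts over its share of whole chromatin. Whole chromatin is chromatin sequenced without an antibody. A library's cut lay 1 log2 unit (2-fold) above the 25th percentile of enrichment, and a gene was marked when it lay above the cut in all 4 libraries of a mark. At least 20 whole-chromatin counts were required both over the whole gene and in a 1 kb window around its transcription start. The active marks were set against the window and H3K27me3 against the whole gene. By the same cuts 9275 genes carried H3K4me3 only, 430 all 3 marks, 2798 H3K4me3 with H3K27me3, 1007 H3K27me3 only and 13151 none, and 28 carried H3K9ac without H3K4me3. Of 154 microRNA genes measured, 3 had enough background, and 0 of these qualified.

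The study ran chromatin immunoprecipitation with sequencing on immature wrapped leaves, the young leaves still enclosed by older ones, of the maize inbred B73. Plants were raised in a greenhouse with normal watering and then received for 10 days either 75% (well watered, NS) or 25% (stressed, WS) of disposable water, in both cases at the same salt concentration. Sampling followed directly (T0) or after 7 more days of recovery (T7). Each of the 4 groups gave 1 library per mark, so a difference between single libraries cannot be set against replicate spread. Whole chromatin came from well-watered plants at T0 and served as the background for every group, and the labels state neither whether plants were pooled nor how they were watered during recovery.

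H3K4me3 is placed by COMPASS-type methyltransferases and H3K9ac by histone acetyltransferases, both near the 5' ends of genes that are being transcribed. H3K27me3 is placed by Polycomb repressive complex 2 at genes kept silent, in plants often along the whole gene. Genes with both active marks and no H3K27me3 are usually those in use in the tissue, among them the housekeeping genes. The gene models are given by ID, since 0 of them could be paired with a name in the reference used here, and so no member's function is given and no marker of the tissue could be looked up.

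Counts over genes came to between 2793985 and 6876219 per H3K4me3 library, between 1152884 and 1856159 for H3K9ac and between 1612935 and 1969485 for H3K27me3. The well-watered T0 library stood apart for both active marks. Its contrast, the 95th percentile of enrichment over the 25th as a fold, was 39.6 for H3K4me3 against 22.3 to 22.9 in the other 3, and 6.75 for H3K9ac against 4.49 to 4.82. For H3K27me3 the well-watered T7 library had the lowest contrast, 3.61 against 4.09 to 4.48. Results on the active marks that use the well-watered T0 library are therefore given beside comparisons that do not: the drought comparison at T7 and the time comparison in stressed plants.

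The members held between 60.8% and 62.8% of all H3K4me3 counts and between 51.3% and 56.7% of H3K9ac counts. Of the whole-chromatin counts in the 1 kb window they held 28.0%, though the window in which each mark was counted is not given. They held 34.5% to 35.5% of the H3K27me3 counts against 42.3% of the whole-gene whole chromatin. Their median H3K4me3 count was 318 in the well-watered and 126 in the stressed library at T0, and 187 and 276 at T7. Set against whole chromatin these were all close to the same level, 2.08-fold and 2.03-fold at T0 and 2.09-fold and 2.08-fold at T7. Median H3K9ac counts were lower, 79 and 62 at T0, then 48 and 46 at T7, or 1.92-fold and 1.75-fold at T0 and 1.74-fold and 1.79-fold at T7. H3K27me3 gave medians of 37 and 36 counts at T0, then 32 and 39 at T7, and its enrichment lay below that of whole chromatin in each library, at 0.819-fold to 0.840-fold.

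**Figure D1:**
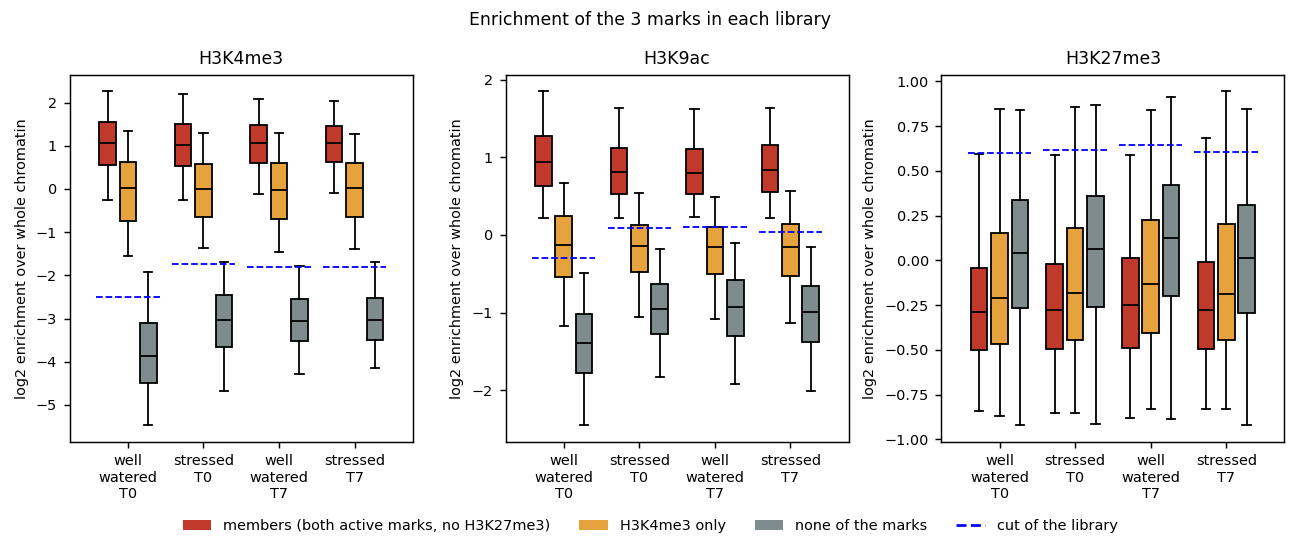
Log2 enrichment over whole chromatin (vertical axis) in each of the 4 libraries of each mark, for the 12735 members, the 9275 genes with H3K4me3 only and the 13151 genes with none of the marks. Boxes span the quartiles with the median as a line, whiskers reach the 5th and 95th percentiles, and the dashed line is the cut of the library; the members sit far above the H3K4me3 cuts but only a little above the H3K9ac cuts.

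How firmly each mark held a gene in the group differed. The member's lowest distance above an H3K4me3 cut had a median of 2.69 log2 units, and 2 members lay within 0.1 units of that cut. For H3K9ac the median was 0.53 units, 1093 members (8.58%) lay within 0.1 units inside the cut, and 1146 other genes lay within 0.1 units outside it. The H3K9ac cut was thus what divided the members from the genes with H3K4me3 only. Among genes marked for H3K4me3 and not H3K27me3, H3K9ac lay above its cut in 4 libraries at the 12735 members, in 3 libraries at 2582 genes, in 2 at 1862, in 1 at 1996 and in 0 at 2835. The libraries did not weigh equally in this. The well-watered T0 library, whose cut was the lowest, was the missing one at 52 genes, against 788 for stressed T0, 1043 for well-watered T7 and 699 for stressed T7. It was the sole library above its cut at 1389 genes, against 165 to 262 for the others.

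The nearest members inside the H3K9ac cut were Zm00001d015272 and Zm00001d036013. Zm00001d015272 held 66, 53, 49 and 47 H3K9ac counts in well-watered and stressed leaves at T0 and then at T7, an average of 1.18-fold over whole chromatin. The nearest genes outside were Zm00001d048702, with 84, 64, 29 and 30 counts, and Zm00001d041455, with 61, 48, 29 and 44. Both missed the cut in 1 of 4 libraries, although their averages, 1.49-fold and 1.41-fold, were above that of Zm00001d015272. A gene just outside could thus hold more H3K9ac on average than one just inside.

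H3K27me3 was below its cut in all 4 libraries at 11259 members (a count of 0 libraries above), and above it in 1 library at 743, in 2 at 423 and in 3 at 310. The last 3 groups together, 1476 members or 11.6%, were not free of the mark in every library. The 430 genes with it in all 4 libraries form the class with all 3 marks. Within 0.1 units of the H3K27me3 cut lay 84 members (0.660%).

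At the top of the H3K4me3 range, Zm00001d018443 and Zm00001d007823 both averaged 10.2-fold over whole chromatin, and Zm00001d006708 averaged 9.23-fold. Zm00001d018443 held 649 and 275 H3K4me3 counts at T0, then 309 and 440 at T7, on 25 whole-chromatin counts in the window. The highest H3K9ac averages were 7.49-fold at Zm00001d031725, 7.14-fold at Zm00001d013465 and 7.12-fold at Zm00001d042325. Zm00001d031725 held 232, 176, 127 and 124 H3K9ac counts in the 4 libraries in the same order, on 45 whole-chromatin counts. Genes at either top thus had fewer window counts of whole chromatin than the members' median of 68, so the background of their folds is less precise.

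The balance of both marks also varied. Zm00001d024398 had the most H3K9ac relative to H3K4me3, with 110, 106, 67 and 80 H3K9ac counts (2.46-fold) but 56, 32, 45 and 65 H3K4me3 counts (0.410-fold), and Zm00001d051526 had 1.82-fold H3K9ac and 0.314-fold H3K4me3. These genes were above the H3K4me3 cut while holding less H3K4me3 than their share of whole chromatin, because the cut itself lies below that level. At the other end Zm00001d049187 had 6.34-fold H3K4me3 and 1.51-fold H3K9ac, and Zm00001d018957 had 6.60-fold and 1.63-fold. Across the 12735 members the enrichments of H3K4me3 and H3K9ac had Spearman correlations of 0.56 and 0.46 at T0, then 0.42 and 0.40 at T7. Over all 39424 genes these were 0.82 to 0.88. Both enrichments share the whole-chromatin denominator, and the scaled counts, which do not, gave 0.35 to 0.46 in the members.

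The rule used the whole-gene count of whole chromatin as a minimum and as the background of H3K27me3, but not for the active marks. The members had a median of 277 whole-gene counts (quartiles 140 and 447), against 223 at genes with H3K4me3 only, 111 at genes with none of the marks, 64 at genes with all 3 marks and 169 over all measured genes. In the 1 kb window the medians were 68, 70, 68, 49 and 67, so that the genes with both, 1 or none of the active marks and no H3K27me3 differed over the whole gene and hardly in the window. The whole-gene count was 4.05 times the window count at the median member and 1.62 times at the median gene with none of the marks. Gene length and how well reads could be placed cannot be told apart in these counts. When all measured genes were split into quintiles of whole-gene count, the share of members went from 15.8% through 19.97%, 30.1% and 47.2% to 48.5%. The share with H3K27me3 went from 19.9% to 1.74% and the share with none of the marks from 47.9% to 18.3%. H3K27me3 enrichment is itself measured against the whole-gene count, so its trend shares a term with the axis.

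**Figure D2:**
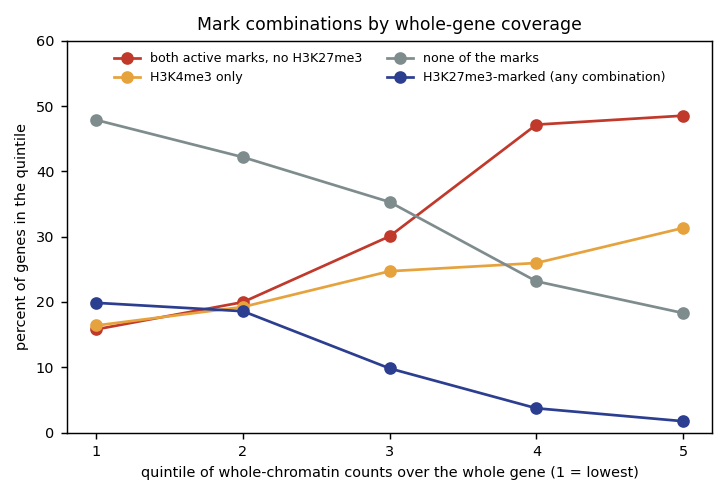
Percent of genes in each class (vertical axis) for quintiles of the whole-gene whole-chromatin count (horizontal axis, about 7885 genes each). Members go from 15.8% in the lowest to 48.5% in the highest quintile, while genes with none of the marks go from 47.9% to 18.3%.

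Within the members, in contrast, higher coverage went with slightly lower enrichment. From the lowest to the highest quintile of members by whole-gene count, median log2 enrichment of H3K4me3 went from 1.27 to 0.92 and that of H3K9ac from 0.99 to 0.72. Scaled CPM (counts relative to the scaled library size), which use no whole chromatin, were nearly level, with H3K4me3 at 45.4 and 47.6 and H3K9ac at 37.8 and 42.1. H3K27me3 counts behaved differently: their average followed the whole-gene whole-chromatin count with a Spearman correlation of 0.975 across the members and 0.884 across all measured genes. At the members the H3K27me3 libraries therefore ranked genes nearly as whole chromatin did.

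The choice of background window decides many memberships. With whole-gene counts as the background of the active marks the same rule took 10307 genes, 6516 of them shared, which is 51.2% of the 12735 members and 63.2% of the alternative set.

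The effect of drought was asked first at T0. With single libraries the members were sorted by size of difference. Libraries were scaled by TMM (trimmed mean of M-values) over features with at least 40 counts in the 4 libraries. A member met this rule of size at a ratio of 1.5-fold or more whose exact binomial interval, at a stricter level than the 95% intervals printed here, left out 1. All 12735 members could be tested for H3K4me3 and H3K9ac and 11677 for H3K27me3. Since membership required each active mark above its cut in every library, genes that crossed a cut between conditions were not members. H3K4me3 was higher in stressed leaves at 52 members (0.408%; 1.24% of all 35654 features tested) and lower at 109 (0.856%; 0.726% of all features). The members' median log2 ratio was -0.080, and 0.0086 over all features. H3K9ac was higher at 15 members (0.118%; 0.441% of all 41294 features) and lower at 243 (1.91%; 0.831% of all features), with a median of -0.18 against 0.019. Beside these counts stands the higher contrast of the well-watered T0 library. With the trend of the ratio on enrichment removed, H3K4me3 was higher at 80 members and lower at 39. H3K9ac was then higher at 76 and lower at 27, so the direction of the split turned for both marks. The share of all features under that setting is not given, so these counts are not read as particular to the members.

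Ratios of one active mark were graded by the enrichment of the other. From the fifth of members with the lowest H3K4me3 enrichment to the fifth with the highest, the median H3K9ac log2 ratio at T0 went from -0.071 to -0.28. The comparison of both well-watered libraries, T7 over T0, shares the well-watered T0 library and went from -0.061 to -0.28. The comparisons without that library went from 0.046 to -0.0055 (drought at T7) and from 0.063 to -0.020 (time in stressed plants). For H3K4me3, graded by H3K9ac enrichment, the medians went from -0.066 to -0.098 for drought at T0, and from -0.029 to -0.053 for drought at T7. The 2 time comparisons had a steeper grade for H3K4me3, from 0.022 to -0.15 in well-watered and from 0.053 to -0.093 in stressed plants. The last ratio does not use the well-watered T0 library. All of these quintiles, however, rank mean enrichment over the 4 libraries of the other mark, well-watered T0 included.

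**Figure D3:**
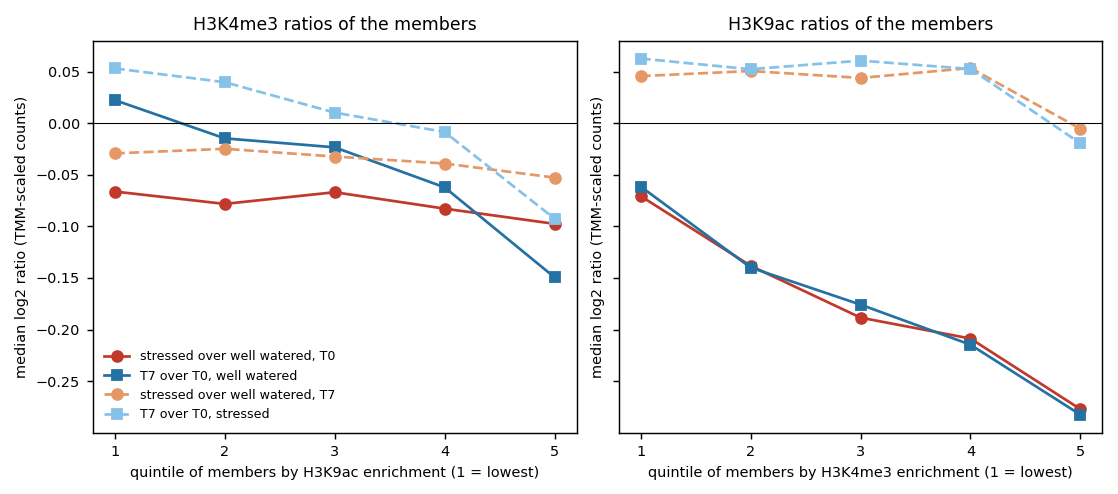
Median log2 ratio of TMM-scaled counts (vertical axis) of H3K4me3 (left) and H3K9ac (right) over quintiles of members by the enrichment of the other mark (horizontal axis, 2547 members each). Solid lines are comparisons that use the well-watered T0 library and dashed lines those that do not. The quintiles rank mean enrichment over all 4 libraries. For H3K9ac the solid lines reach -0.28 in the highest quintile while the dashed lines stay between -0.020 and 0.063.

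Among the members higher in stressed leaves at T0, 3 met the rule for both active marks, which is 5.77% of the 52 and 20% of the 15. The overlap of both marks was counted in members only, here and below, so it cannot be set against all features. Zm00001d005804 held 18.1 and 48.1 scaled H3K4me3 CPM at T0, and 28.3 and 23.4 at T7. The stressed T0 library was the highest of the 4, and its log2 ratio over well watered was 1.41 (95% interval 1.04 to 1.78). H3K9ac at this gene had the same order, 28.5 and 67.1 at T0, then 46.1 and 26.3 at T7, with 1.23 (0.74 to 1.75) at T0. H3K27me3 was 65.1 and 59.97 at T0, a ratio of -0.12 (-0.51 to 0.27).

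Zm00001d028574 held 34.1 and 88.6 scaled H3K9ac CPM at T0, then 51.0 and 56.2 at T7. Its T0 ratio was 1.37 (0.94 to 1.84), beside 0.65 (0.40 to 0.88) for H3K4me3. Zm00001d005609 was the remaining member, with ratios of 0.76 (0.53 to 0.98) for H3K4me3 and 0.66 (0.28 to 1.05) for H3K9ac. In each of these genes the stressed T0 library was the highest for both marks. Zm00001d020100 met the rule for H3K4me3 alone, with 40.7 and 92.7 at T0, then 45.9 and 33.2 at T7 and a T0 ratio of 1.19 (0.94 to 1.44); its H3K9ac ratio was 0.73 (0.22 to 1.27).

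On the lower side 7 members met the rule for both marks, 6.42% of the 109 and 2.88% of the 243, and 0 members met it in opposite directions. Zm00001d047970 held 70.3 and 45.6 scaled H3K4me3 CPM at T0, then 57.6 and 57.2 at T7, and 54.7 and 24.7 for H3K9ac at T0, then 40.5 and 43.9 at T7. The stressed T0 library was the lowest for both, with ratios of -0.62 (-0.92 to -0.34) and -1.14 (-1.72 to -0.60). Zm00001d016059 had a like order, with ratios of -0.77 (-1.20 to -0.38) and -1.11 (-1.65 to -0.61). Zm00001d017755 had -0.62 (-0.94 to -0.32) and -0.79 (-1.23 to -0.38). Zm00001d052205 was different: its H3K4me3 stood at 80.9 in well-watered leaves at T0 and at 51.0, 49.7 and 51.1 in the other 3 libraries, so that the well-watered T0 library alone was high.

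For H3K4me3 alone, Zm00001d038346 held 123 and 74.9 scaled CPM at T0, then 101 and 89.2 at T7, a T0 ratio of -0.71 (-0.94 to -0.49), with -0.41 (-0.82 to -0.01) for H3K9ac. Zm00001d020147 had -0.72 (-0.98 to -0.47) for H3K4me3, while its H3K9ac, at 32.4 and 34.2, gave 0.08 (-0.48 to 0.64). For H3K9ac alone, Zm00001d050092 held 71.5 and 31.7 at T0, then 29.9 and 42.1 at T7, and Zm00001d051532 held 78.2 and 35.5 at T0, then 43.7 and 56.2 at T7. Both had the well-watered T0 library as the highest of the 4, with T0 ratios of -1.17 (-1.68 to -0.69) and -1.13 (-1.61 to -0.68), while their H3K4me3 ratios were -0.12 (-0.34 to 0.09) and 0.19 (-0.06 to 0.43).

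Both marks lay on one side at most of these members. Of the 52 members with higher H3K4me3, 76.9% lay above 0 for H3K9ac, where 28.1% of all members did, and their median H3K9ac ratio was 0.34. Of the 109 with lower H3K4me3, 76.1% lay below 0 for H3K9ac, close to the 71.9% of all members. Across all members the T0 ratios of both marks had a Spearman correlation of 0.14, and 0.11 with the trend on enrichment removed. At T7 these correlations were 0.032 and 0.023.

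**Figure D4:**
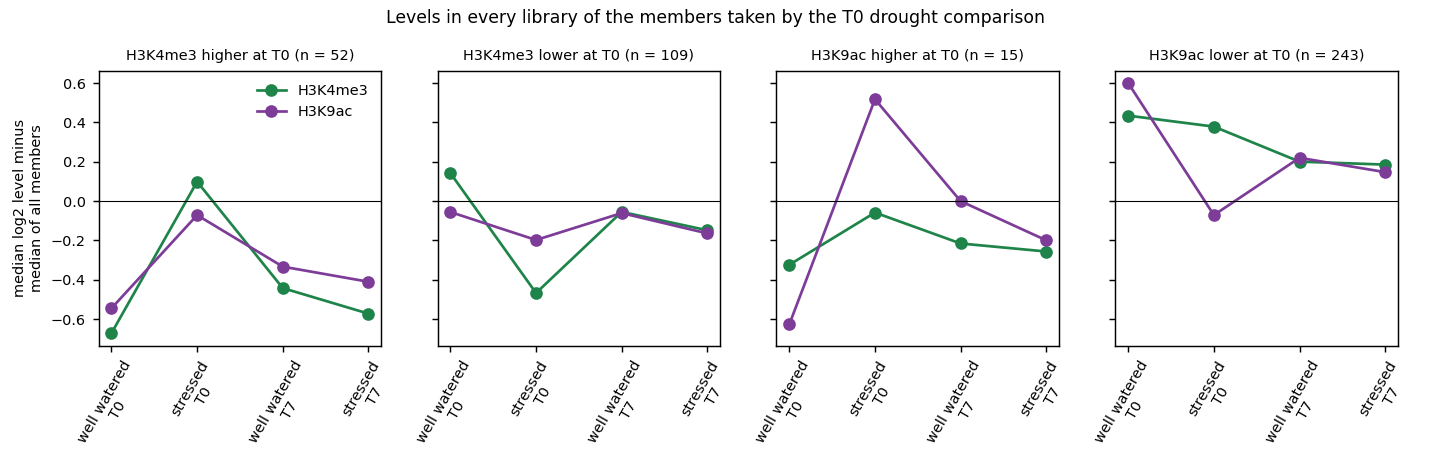
Median log2 level of H3K4me3 and H3K9ac in each library, minus the median of all members (vertical axis), for the members that met the rule at T0; the sets were chosen on the first 2 libraries of each panel. In the H3K4me3-higher and H3K9ac-higher sets stressed T0 is the highest of the 4 libraries for both marks, and in the H3K9ac-lower set it is the H3K9ac of well-watered T0 that stands above the other 3.

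The libraries that did not choose these sets show where their levels lay. For the 52 members with higher H3K4me3, levels relative to all members were -0.67 in well-watered and 0.10 in stressed leaves at T0, and -0.44 and -0.57 at T7, so the stressed T0 library stood apart from the other 3. For the 109 lower members they were 0.14 and -0.47 at T0, and -0.05 and -0.15 at T7. The 243 members with lower H3K9ac had 0.60 and -0.07 for this mark at T0, then 0.22 and 0.15 at T7, both T7 libraries lying between. H3K4me3 at the same 243 members was 0.43 and 0.38 at T0, then 0.20 and 0.19 at T7. There T0 and T7 differed more than watering did.

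After recovery fewer members met the rule between previously stressed and well-watered plants. The T0 counts rest on the well-watered T0 library with its higher contrast. Median H3K9ac counts of members were also lower at T7, 48 and 46 against 79 and 62 at T0, which widens the interval. For H3K4me3 they were 187 and 276 against 318 and 126. The part of contrast and depth in the drop was not tested. H3K4me3 was higher at 5 members (0.0393%; 0.0982% of all features) and lower at 10 (0.0785%; 0.0926% of all features). H3K9ac was higher at 11 (0.0864%; 0.0775% of all features) and lower at 9 (0.0707%; 0.116% of all features). These shares lie near or below those of all features, and 0 members met the rule for both marks in one direction. The medians were -0.036 for H3K4me3 and 0.038 for H3K9ac.

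Zm00001d010087 held 12.5 and 12.7 scaled H3K4me3 CPM at T0, then 5.71 and 12.8 at T7, so that well-watered T7 was the low library, and its T7 ratio was 1.14 (0.47 to 1.90). Zm00001d035829 had 13.7 and 24.0 at T7, a ratio of 0.81 (0.36 to 1.29), and 0.69 (0.13 to 1.23) at T0, which did not meet the rule. Zm00001d011536 was lower, with 103 and 63.5 at T7 (-0.70, -0.90 to -0.49) after 75.6 and 91.9 at T0. Zm00001d005607 was lower as well, at -0.84 (-1.15 to -0.54). None of these 4 genes met the rule for H3K9ac at T7.

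For H3K9ac, Zm00001d043029 held 27.5 and 63.2 scaled CPM at T7 after 56.9 and 45.6 at T0, a T7 ratio of 1.19 (0.59 to 1.83) with the well-watered T7 library the lowest. Zm00001d025639 followed with 1.11 (0.55 to 1.70). Zm00001d022103 was lower, with 47.8 and 17.6 at T7 (-1.42, -2.25 to -0.69), and its T0 ratio of -0.83 (-1.46 to -0.24) did not meet the rule. Zm00001d017691 had -1.08 (-1.68 to -0.53) at T7 and 0.12 (-0.33 to 0.56) at T0. H3K4me3 ratios at T7 of these 4 genes lay between -0.29 and 0.06.

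Whether a member kept its T0 difference was read from comparisons that share no library. Of the 52 members with higher H3K4me3 at T0, 0 were higher at T7, 1 was lower, and 21.2% lay above 0 at T7 where 40.6% of all members did. Of the 109 lower at T0, 1 was lower at T7 and 30.3% lay above 0. The 243 members with lower H3K9ac had a T7 median of 0.017, and 50.6% lay above 0 against 54.7% of all members. Zm00001d030656 was lower for H3K4me3 at both times, with 31.0 and 16.7 scaled CPM at T0, then 37.7 and 23.5 at T7. Both stressed libraries lay below both well-watered ones, with ratios of -0.88 (-1.39 to -0.43) and -0.68 (-1.02 to -0.34), and its H3K9ac ratios were -0.41 (-1.02 to 0.18) and -0.29 (-0.96 to 0.36). Zm00001d028574, described above, met the rule for H3K4me3 in opposite directions, 0.65 at T0 and -0.64 (-0.89 to -0.38) at T7.

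H3K27me3, low at the members, differed at few of them. At T0 it was higher in stressed leaves at 18 members (0.154%; 0.109% of all 33860 features) and lower at 8 (0.0685%; 0.103% of all features). At T7 it was higher at 10 (0.0856%; 0.425% of all features) and lower at 15 (0.128%; 0.13% of all features). Zm00001d045735 held 24 and 64 H3K27me3 counts at T0, then 41 and 33 at T7, a T0 ratio of 1.45 (0.77 to 2.21). Zm00001d015741 held 6 and 28 at T0, then 14 and 18 at T7, a ratio of 2.18 (0.97 to 3.83). In both the stressed T0 library was the highest, and their H3K4me3 ratios at T0 were -0.17 (-0.52 to 0.16) and 0.13 (-0.13 to 0.39).

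Zm00001d029483 had 39 and 11 H3K27me3 counts at T0 (-1.73, -2.89 to -0.78) and Zm00001d045872 had 91 and 44 (-0.99, -1.55 to -0.46). At T7, Zm00001d014046 was higher in previously stressed plants, with 11 and 48 counts (1.79, 0.87 to 2.93) after 31 and 41 at T0. Well-watered T7 was the low library there. Zm00001d039115 had 2 and 22 counts at T7 (2.88, 1.15 to 6.31), Zm00001d053977 had 58 and 29 (-1.27, -1.98 to -0.62) and Zm00001d051345 had 191 and 142 (-0.71, -1.04 to -0.39). None of the 8 genes named for H3K27me3 met the rule for an active mark in the same drought comparison.

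A fit over all 4 libraries of a mark, with terms for watering and for time, left 1 residual degree of freedom and allowed a test (edgeR quasi-likelihood, Benjamini-Hochberg adjusted over all features). For watering, edgeR called 0 members for each mark (0% of all features higher for each mark, 0.0028% lower for H3K4me3, 0.00242% for H3K9ac and 0% for H3K27me3). Unadjusted p lay under 0.05 at 1013 members in the H3K4me3 fit (7.95%; 6.62% of all features), at 381 in that of H3K9ac (2.99%; 4.01% of all features) and at 375 in that of H3K27me3 (3.21%; 3.54% of all features), shares near those of all features. DESeq2 called 0 as well. Its unadjusted p lay under 0.05 at 4 members for H3K4me3 (0.0314% against 0.0533% of all features). It did so at 2 for H3K9ac (0.0157% against 0.0315%) and at 3 for H3K27me3 (0.0257% against 0.0177%). Other settings of the edgeR fit called few of these members for watering. With no filter on low counts H3K4me3 was lower at 4, and with the trend on enrichment removed H3K4me3 was lower at 1 and H3K9ac higher at 1.

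Time was different for H3K4me3. It rose from T0 to T7 at 97 members (0.762%; 0.869% of all features) and fell at 652 (5.12%; 3.03% of all features). It fell at 2.25% of genes with H3K4me3 only. The median log2 change was close in both classes, -0.024 at the members and -0.017 at genes with H3K4me3 only. Their median H3K4me3 counts at well-watered T0 were 318 and 155, and a call is easier at higher counts. The part of count depth in the gap was not tested. The fit takes the disagreement between waterings as its error, partly pooled across features, so the genes called need not have moved equally in both. DESeq2 called 0 of these, with unadjusted p under 0.05 at 186 members (1.46%; 1.13% of all features). With the trend on enrichment removed, 301 members rose and 306 fell, among them all 97 of the risers and 295 of the 652 (45.2%). The fallers were then 2.40% of the members and 2.05% of the genes with H3K4me3 only, a gap of smaller size that was not tested. The risers were then 2.36% of the members and 1.54% of the genes with H3K4me3 only. The share of all features under that setting is not given here. In the H3K9ac fit edgeR called 0 members over time (0% of all features). There 471 had an unadjusted p under 0.05 (3.70% against 4.54% of all features). DESeq2 called 0, with 8 at that level (0.0628% against 0.0823% of all features). The H3K27me3 fit likewise gave 0 by edgeR (0% of all features), with 412 at that level (3.53% against 3.92% of all features). By DESeq2 it gave 0, with 2 at that level (0.0171% against 0.0177% of all features).

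Zm00001d041387 held 79.2 and 83.3 scaled H3K4me3 CPM in well-watered and stressed leaves at T0, then 34.3 and 37.1 at T7. Both T7 libraries lay far below both T0 libraries, and the log2 change was -1.19 ± 0.11 (SE; edgeR quasi-likelihood test, adjusted p = 8.8e-09). Its H3K9ac stood at 86.0 and 43.7 at T0, then 45.3 and 30.7 at T7. Zm00001d005609 had 59.9 and 101 for H3K4me3 at T0, then 39.97 and 38.3 at T7, a change of -1.005 ± 0.13 (edgeR adjusted p = 6.07e-06), the gene already named as higher for both active marks under drought. In both genes H3K27me3 lay above its cut in 3 of 4 libraries, on at most 16 counts a library.

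Of the risers, Zm00001d013367 held 48.7 and 41.3 at T0, then 71.7 and 74.6 at T7, a change of 0.69 ± 0.11 (edgeR adjusted p = 0.000177). Its H3K9ac was 26.8 and 32.3 at T0, then 42.1 and 50.9 at T7. Zm00001d008181 held 82.1 and 74.2 and then 122 and 103, a change of 0.53 ± 0.09 (edgeR adjusted p = 0.000339). Its H3K9ac, 64.2 and 69.6 at T0, then 68.0 and 64.1 at T7, met the rule of size in neither time comparison. Zm00001d015741, named above for H3K27me3, was also among the fallers, with a change of -0.65 ± 0.12 (edgeR adjusted p = 0.000829).

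As groups, the 652 fallers had median H3K4me3 levels of 70.1 and 69.3 scaled CPM at T0, then 49.5 and 49.6 at T7. The 97 risers had 44.2 and 41.1, then 59.5 and 58.9. Both sets were chosen on these same H3K4me3 libraries, so the direction of these levels follows from the choice. H3K9ac at the fallers was 51.1 and 40.2 at T0, then 37.6 and 35.5 at T7. Its median T7 over T0 ratio there was -0.41 in well-watered plants (all members -0.18) and -0.16 in stressed plants (all members 0.044). At the risers the H3K9ac ratios were 0.054 and -0.0088. Before removal of the trend on enrichment, fallers were more frequent among members with strong H3K9ac. Their share went from 1.06% in the lowest quintile of members by H3K9ac enrichment to 12.7% in the highest. These shares are not given with the trend removed. The 306 fallers of that setting had a median log2 H3K9ac enrichment of 1.02, against 1.21 for the 652. Members not called there had 0.83. The high-contrast well-watered T0 libraries enter both the H3K4me3 call and the H3K9ac enrichment. In stressed plants alone, 24 members in the lowest quintile and 105 in the highest met the rule of size for lower H3K4me3. Those quintiles still rank H3K9ac enrichment over all 4 libraries.

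By the rule of size, H3K4me3 in well-watered plants was higher at T7 at 57 members (0.448%; 1.3% of all features) and lower at 230 (1.81%; 1.74% of all features). In stressed plants H3K4me3 was higher at 73 (0.573%; 0.522% of all features) and lower at 252 (1.98%; 1.74% of all features). The stressed comparison does not use the well-watered T0 library. With the trend on enrichment removed the well-watered counts became 95 and 94 and those in stressed plants 74 and 165. Shares of all features under that setting are not given, for this mark or for H3K9ac. H3K9ac in well-watered plants was higher at 4 members (0.0314%; 0.722% of all features) and lower at 187 (1.47%; 0.714% of all features). With the trend removed these counts were 25 and 27. In stressed plants H3K9ac was higher at 23 (0.181%; 0.131% of all features) and lower at 26 (0.204%; 0.177% of all features). In well-watered plants 23 members were lower for both active marks (10.0% of the 230 and 12.3% of the 187) and in stressed plants 10 (3.97% of the 252 and 38.5% of the 26). H3K27me3 in well-watered plants was higher at 9 (0.0771%; 0.0975% of all features) and lower at 12 (0.103%; 0.665% of all features). In stressed plants H3K27me3 was higher at 7 (0.0599%; 0.121% of all features) and lower at 6 (0.0514%; 0.0768% of all features).

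The fallers differed from the other members in the mark that the group is meant to lack. H3K27me3 lay above its cut in at least 1 library at 267 of the 652 fallers (41.0%), at 1 of the 97 risers (1.03%) and at 10.1% of the members not called. Read the other way, H3K4me3 fell at 3.42% of the 11259 members with H3K27me3 above its cut in 0 libraries, at 14.9% of those with 1 library, at 21.7% with 2 and at 20.6% with 3. Of the genes with H3K27me3 that are not members, it fell at 60 of the 430 with all 3 marks (14.0%). H3K4me3 fell at 113 of the 2798 genes with H3K4me3 and H3K27me3 but no H3K9ac (4.04%). These 2798 genes had a lower median H3K4me3 count at well-watered T0, 103 against 315 at members with 0 libraries. Their median log2 change over time was -0.215, against -0.207 with all 3 marks and -0.0039 at members with 0 libraries. With the trend on enrichment removed the member shares were 1.56%, 7.54%, 10.9% and 9.03%. Those of the non-member classes were 6.98% with all 3 marks and 3.90% without H3K9ac. In stressed plants alone, without the well-watered T0 library, the median H3K4me3 ratio was 0.019 for members with 0 such libraries and -0.19 for the 1476 with any. These splits were chosen after the values had been seen and carry no test.

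**Figure D5:**
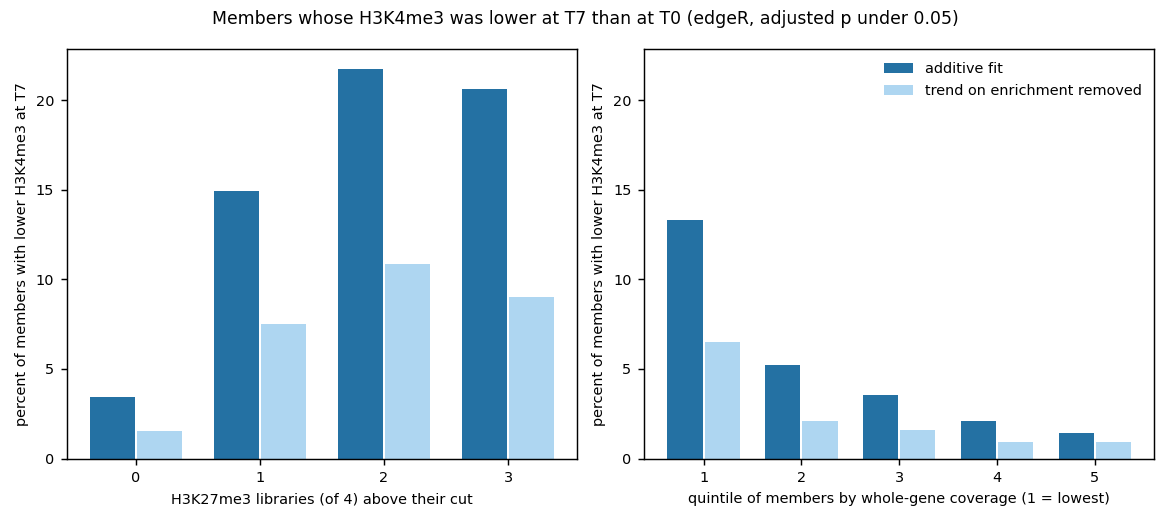
Percent of members whose H3K4me3 fell from T0 to T7 (vertical axis; edgeR quasi-likelihood, adjusted p under 0.05), by the number of libraries with H3K27me3 above its cut (left) and by quintile of whole-gene whole-chromatin count (right), in the additive fit and with the trend on enrichment removed. The share goes from 3.42% with 0 libraries to 20.6% with 3, and from 13.3% in the lowest coverage quintile to 1.41% in the highest.

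Whole-gene coverage moved with the same result. The fallers had a median of 100 whole-gene whole-chromatin counts against 283 at members not called, and the share that fell went from 13.3% in the lowest coverage quintile of members through 5.22%, 3.53% and 2.12% to 1.41%. The members with H3K27me3 above its cut lay mostly at the low end, where their median H3K27me3 count was 45 summed over 4 libraries, and the H3K27me3 cut is itself set against the whole-gene count. Within the lowest quintile 18.9% of the 1285 with H3K27me3 above its cut in any library fell against 7.61% of the 1262 without. In the second quintile 15.3% of 157 fell against 4.56% of 2390. With the trend on enrichment removed these were 9.11% against 3.8% and 8.28% against 1.72%. Coverage was not equal within these quintiles: the median whole-gene count was 49 at members with H3K27me3 above its cut and 73 at those without in the lowest, and 134 and 171 in the second. When members were instead chosen with the whole-gene background, 9.68% of those with H3K27me3 above its cut in any library fell against 4.02% of those without. The part of coverage and of the well-watered T0 library in the pattern was not tested beyond these values.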

How the data were processed

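The authors deposited raw read counts per gene, 1 table per mark with 4 libraries and 1 table of whole chromatin with 2 columns, per the labels and file headers; counts of all libraries were used as deposited. Per the submitters' processing notes, CASAVA 1.8 and Bowtie2 were used with the genome B73 RefGen_v4. How reads were counted, in which window for each mark, and whether duplicates were removed is not given in the sources used here. Ratios carry a prior of 0.5 counts. Printed intervals are exact 95% conditional binomial (Clopper-Pearson) intervals, which cover counting error only and take the scaling as known; reads without molecular identifiers are not independent molecules. The p-values of the fit over 4 libraries measure only the spread between these libraries. edgeR 4.0.16 with limma 3.58.1 in R 4.3.3 gave the quasi-likelihood fit and its TMM scaling, and DESeq2 1.42.0 was the alternative tool. Ratios and scaled CPM used TMM scaling computed in Python after the edgeR method. The trend of ratios on enrichment was fitted by lowess (span 0.3) over tested features with at least 20 whole-chromatin counts. It was interpolated for the other tested features. The scripts were tested on simulated data.

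The members and lists were chosen with earlier results of these data known. The 46 genes named, 44 of them members, follow a rule: the highest levels and most unequal marks, for each mark and drought comparison the 2 higher and 2 lower whose interval lay farthest from 1, up to 6 for both active marks, the smallest p in the additive fit, both times, and those nearest the H3K9ac cut. Splits by H3K27me3 libraries and coverage were chosen after seeing values. Alternatives were DESeq2 size factors, no count filter, the trend removed, other cuts and the whole-gene background.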

Additional observations from a re-analysis of the deposited data

Results flagged for a closer look

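H3K4me3 at Zm00001d028574 differed between stressed and well-watered plants in opposite directions at the 2 times, with a log2 ratio of 0.65 (95% interval 0.40 to 0.88) at T0 and -0.64 (-0.89 to -0.38) at T7. Scaled H3K4me3 CPM were 55.8 and 87.2 in well-watered and stressed leaves at T0 and 65.0 and 41.8 at T7. H3K9ac at the same gene had ratios of 1.37 (0.94 to 1.84) and 0.14 (-0.39 to 0.66). With 1 library per group the difference between the times was not tested.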

How the results depend on the processing

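The number of members was 6862 with the cut at the 25th percentile plus 1.5, and under the other 4 alternatives it lay between 10307 and 16467. Pairs of counts are members higher, then lower. Shares of all features under these settings are not given. After removal of the trend on enrichment, H3K4me3 gave 80 and 39 for drought at T0, 6 lower at T7, 95 and 94 for time in well-watered plants and 165 lower for time in stressed plants. H3K9ac then gave 76 and 27 for drought at T0, 25 and 27 for time in well-watered plants and 14 higher in stressed plants, and H3K27me3 11 higher for time in stressed plants. In the additive fit that setting gave 301 risers and 306 fallers for H3K4me3 over time, 1 lower for H3K4me3 under watering, 1 higher for H3K9ac under watering and 1 lower for H3K9ac over time.

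The same setting turned the sign of most member medians, which became 0.0010 (drought at T0), 0.043 (time, well watered) and 0.039 (time, stressed) for H3K4me3, 0.013, -0.0021 (T7) and 0.019 (time, well watered) for H3K9ac, and 0.022 (T7), -0.013 and 0.013 (time) for H3K27me3. The trend removed was fitted over tested features that include the members, so the sign of these small medians is not read as a direction. DESeq2 size factors turned the H3K4me3 median for time in stressed plants to 0.011, and no filter turned that of H3K27me3 to 0.0059.

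Members chosen by the whole-gene background gave 157 and 71 for H3K4me3 at T0, 155 higher over time in well-watered and 44 higher in stressed plants. For H3K9ac they gave 37 higher at T0, 5 higher at T7, 100 higher over time when well watered and 15 when stressed, and 1 lower under watering in the additive fit. For H3K27me3 they gave 9 and 5 at T0, 7 lower at T7, 5 higher over time in well-watered and 1 lower in stressed plants. No filter on low counts gave 28 and 374 for H3K4me3 over time in well-watered plants, and in the additive fit 53 risers and 4 lower under watering. DESeq2 gave 0 risers and 0 fallers. The causes of these differences were not tested. No replicate block could be fitted, since each group has 1 library per mark, but the additive fit itself compares time within each watering and watering within each time. Depth limits H3K27me3 and H3K9ac most, with member medians of 32 to 79 counts a library.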
